A study of Mus musculus with 21 samples.

Results

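Expression of 9 genes of the ventral telencephalon and of GABAergic neurons was examined in TRAP-seq and RNA-seq libraries of the E14.5 mouse embryo. The genes were Gsx2, Nkx2-1, Dlx1, Dlx2, Dlx5, Lhx6, Lhx8, Gad1 and Gad2, taken by gene symbol from the 23827 annotated rows of each expression table. Each symbol had 1 row, and 9 of 9 genes were found. TRAP (translating ribosome affinity purification) pulls down ribosomes that carry a tagged protein, here the large subunit protein Rpl10a fused to mCherry, and sequences the bound mRNA, called the translatome. The transcriptome is total RNA of the same organ.

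The telencephalon is divided early into a dorsal part, the pallium, which makes the glutamatergic neurons of the cortex, and a ventral part, the ganglionic eminences, which make GABAergic neurons. Gsx2 and Nkx2-1 pattern ventral progenitors, the Dlx homeobox genes carry these progenitors into GABAergic differentiation, and Lhx6 and Lhx8 are used by descendants of the medial ganglionic eminence. Gad1 and Gad2 encode the glutamate decarboxylases that make GABA. Newborn GABAergic interneurons leave the ventral telencephalon and migrate into the dorsal part, so that a dissected dorsal tissue is not free of them, but these cells do not descend from dorsal progenitors.

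The 21 libraries formed 7 groups of 3 replicates, all from embryonic day 14.5. Every group carried 1 copy of the conditional allele Gt(ROSA)26Sor-mCherry-Rpl10a. Brain and kidney transcriptomes and translatomes came from embryos that also carried Sox2Cre+/-, which switches the tag on throughout the embryo proper. The brain and kidney EC (endothelial cell) translatomes came from Cdh5CreERT2+/- embryos, and the Emx1-lineage translatome from Emx1Cre+/- embryos. Cdh5CreERT2 needs tamoxifen, which the mothers received, while Emx1Cre acts in dorsal telencephalic progenitors and marks all their descendants, also those that no longer express Emx1. The tag was driven by the CAGGS promoter once Cre had acted, so it marks cells with a history of Cre, not with current driver expression. Pulled-down RNA can also hold background RNA from untagged cells. The transcriptome libraries are total RNA of all cells. The brain tissue was forebrain with a part of the diencephalon, tissue of 1 to 2 embryos was used per sample, and embryos were picked by their mCherry fluorescence.

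Sequencing depth ranged from 21760652 to 79231692 reads assigned to rows per library, with a median of 43190754. Over the 4 forebrain groups the coefficient of variation of the 9 genes among replicates had a median of 5.30% and ranged from 1.45% to 15.5%. The labels were set beside marker lists. These lists were chosen with earlier results of these data known, so they are not an independent check. Endothelial genes such as Cdh5 and Pecam1 were higher in the brain EC than in the brain translatome for 10 of 10 genes. Their median fold change was 21.8, and 24.8% of all rows tested were higher. Dorsal telencephalon genes such as Tbr1 and Emx1 were higher in the Emx1-lineage for 18 of 20 genes. Their median was 1.84-fold, and 9.20% of all rows tested were higher. The Emx1-lineage, brain EC and kidney EC libraries were each sequenced in a run of their own, so that run and group cannot be told apart in the comparisons of these lineages.

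On the mouse genome (GRCm38, GENCODE vM21) 5 of the 9 genes lie on chromosome 2. Gad2 spans chr2:22622205-22693874 on the plus strand, Lhx6 chr2:36081953-36105408 on the minus strand, and Gad1 chr2:70553072-70602014 on the plus strand. Dlx1 at chr2:71528113-71533981 (plus strand) and Dlx2 at chr2:71543408-71546754 (minus strand) are convergent neighbours with 9426 bases between their ends. The others are Dlx5 at chr6:6877805-6882085 (minus), Gsx2 at chr5:75075601-75077893 (plus), Lhx8 at chr3:154306294-154330659 (minus) and Nkx2-1 at chr12:56531958-56536908 (minus). Whole genes were measured, so each value pools the exons of the transcripts in the row, 4 RefSeq transcripts for Lhx6 and 2 each for Dlx5 and Nkx2-1.

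The promoter bases of 4 genes are shown because the 9 genes fell together in the Emx1-lineage while differing in how much was left. Gsx2 kept the most there and Lhx8 the least, Dlx2 holds more than 1 E-box, and Lhx6 was the gene with a high level in kidney EC. Each line gives the 250 bases before a RefSeq start (GRCm38.p6) on the strand of the gene, with capitals marking any E-box of the form CACGTG. The TATA box motif, spelled TATAAA, is marked likewise. For Lhx6, which has 3 starts in the table, the most upstream one is shown. The windows are chr5:75075351-75075600 (plus) for Gsx2, chr3:154330561-154330810 (minus) for Lhx8, chr2:71546755-71547004 (minus) for Dlx2 and chr2:36105409-36105658 (minus) for Lhx6.
Gsx2: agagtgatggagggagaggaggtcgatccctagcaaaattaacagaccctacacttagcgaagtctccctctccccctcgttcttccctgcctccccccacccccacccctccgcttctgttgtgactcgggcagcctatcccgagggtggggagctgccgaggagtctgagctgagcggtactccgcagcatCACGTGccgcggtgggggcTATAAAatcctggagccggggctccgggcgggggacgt
Lhx8: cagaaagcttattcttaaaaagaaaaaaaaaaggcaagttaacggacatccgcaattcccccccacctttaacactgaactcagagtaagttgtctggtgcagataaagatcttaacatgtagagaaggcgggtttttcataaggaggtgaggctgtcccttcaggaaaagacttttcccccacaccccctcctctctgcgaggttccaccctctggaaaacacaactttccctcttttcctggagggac
Dlx2: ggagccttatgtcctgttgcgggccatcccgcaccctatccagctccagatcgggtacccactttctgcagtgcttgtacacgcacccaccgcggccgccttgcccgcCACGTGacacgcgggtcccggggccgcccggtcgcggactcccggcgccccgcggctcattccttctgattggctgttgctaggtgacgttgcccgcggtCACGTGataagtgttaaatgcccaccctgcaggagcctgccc
Lhx6: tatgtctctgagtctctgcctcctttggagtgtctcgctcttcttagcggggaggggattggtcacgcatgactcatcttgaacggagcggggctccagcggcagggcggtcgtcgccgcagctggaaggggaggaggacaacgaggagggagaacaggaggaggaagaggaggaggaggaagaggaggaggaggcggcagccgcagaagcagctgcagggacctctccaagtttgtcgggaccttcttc

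RefSeq windows were matched for 8 of the 9 genes, in 10 windows, with no entry for Dlx5. Motifs were searched on both strands. CACGTG stood in 2 of the 10 windows, those of Dlx2 and Gsx2, against 6.02% of 32851 mouse windows of this length. Its first base lay 142 and 42 bases before the Dlx2 start and 57 bases before the Gsx2 start. TATAAA stood in 2 windows, 38 bases before the Gsx2 start and 141 bases before the Gad1 start, against 12.4% of all windows. The homeodomain palindrome TAATTA was in 0 of the 10 windows (4.84% of all), CAAGTG, a core of Nkx2 sites, in 0 (11.6% of all), and the shorter TAAT, which TAATTA contains, in 3 (54.9% of all). These matches describe the letters of the windows and were not related to the expression values.

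**Figure D1:**
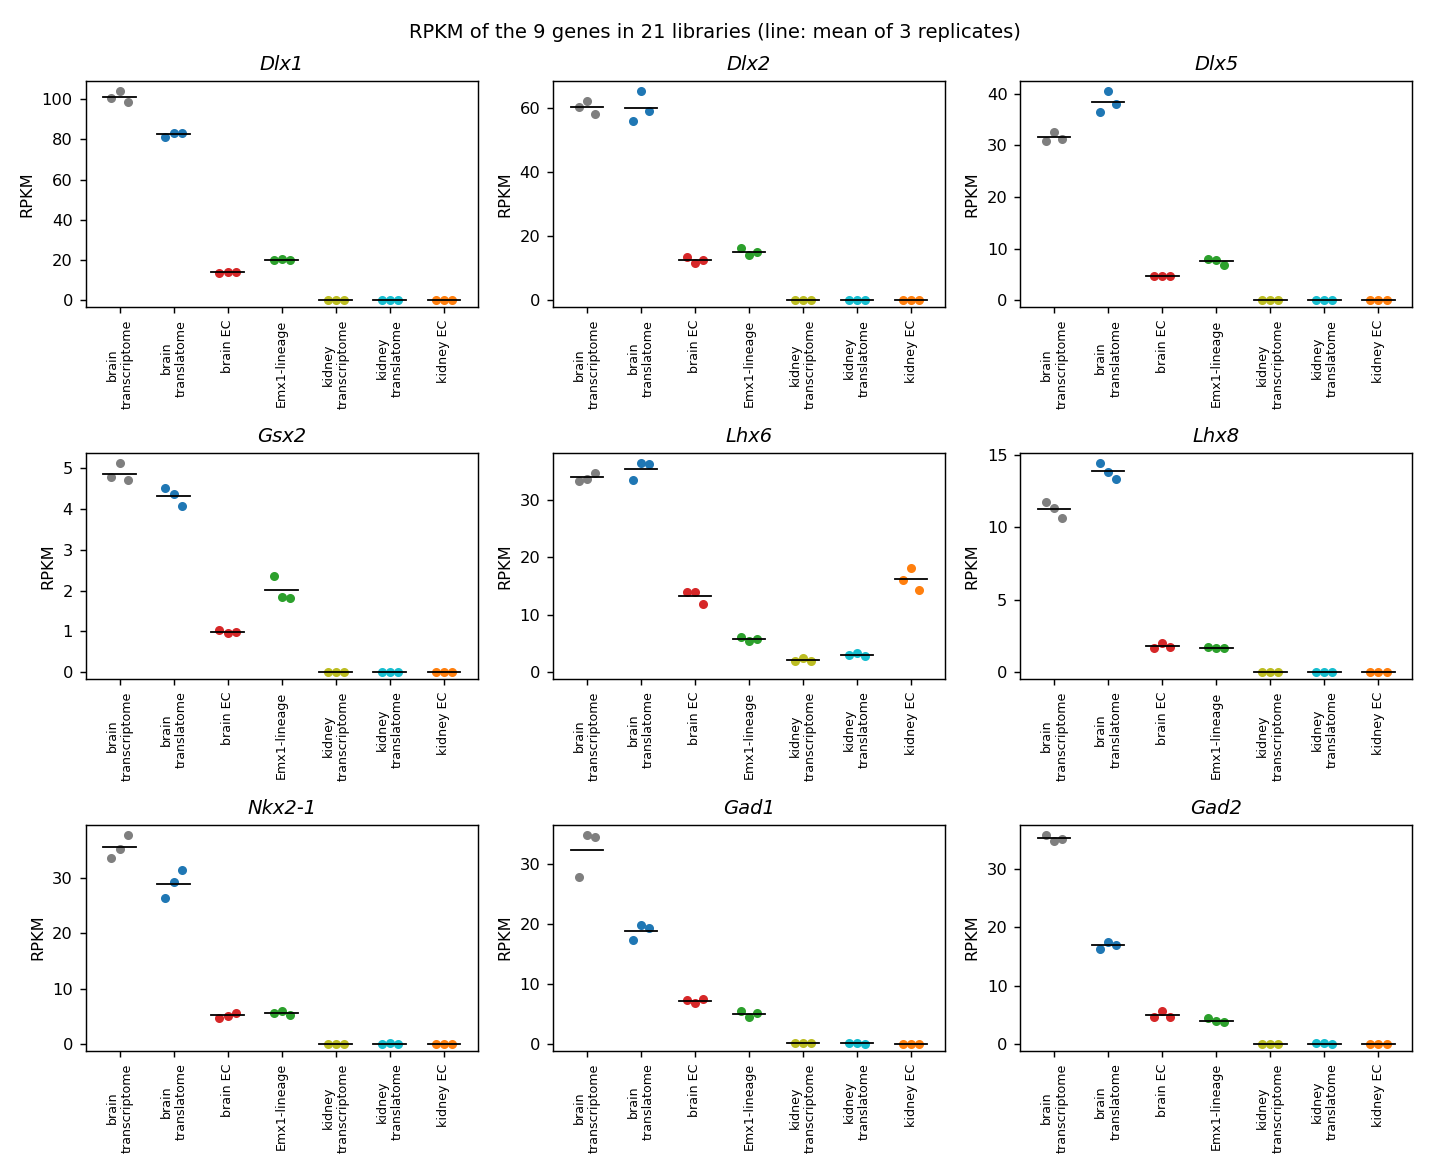
RPKM of the 9 genes (1 panel each, own vertical scale) in the 21 libraries, by group; points are the 3 replicates and the line is their mean. Brain transcriptome and brain translatome lie above brain EC and Emx1-lineage in all panels, kidney libraries lie near 0 for 8 genes, and Lhx6 is the exception, with 16.1 RPKM in kidney EC.

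In the brain translatome, levels per transcript length (RPKM, reads per kilobase of transcript scaled to the depth of the library) ran from the Dlx genes at the top to Gsx2 at the bottom. Dlx1 led with 82.6 ± 1.20 RPKM (SD, n = 3), followed by Dlx2 with 60.0 ± 4.65 RPKM and Dlx5 with 38.3 ± 1.99 RPKM. Lhx6 stood at 35.3 ± 1.62 RPKM, Nkx2-1 at 29.0 ± 2.50 RPKM, Gad1 at 18.9 ± 1.28 RPKM and Gad2 at 16.9 ± 0.586 RPKM. Lhx8 with 13.8 ± 0.551 RPKM and Gsx2 with 4.32 ± 0.223 RPKM closed the order. Gad1 and Gad2 overlapped between replicates, while Dlx5 and Lhx6 were separated by less than 0.1 RPKM between their nearest replicates. In the Emx1-lineage Dlx1, Dlx2 and Dlx5 again led, whereas the replicates of Lhx6, Nkx2-1 and Gad1 overlapped their neighbours in the order, and Gsx2 stood above Lhx8.

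The first question was how far the ventral and GABAergic transcripts were removed when ribosomes were taken only from the dorsal Emx1-lineage. All 9 genes were lower in the Emx1-lineage than in the brain translatome (edgeR quasi-likelihood test, adjusted p under 0.001), where 12.8% of the 19006 rows tested were lower and 9.20% higher. None of the 9 overlapped between the groups, and 30.6% of all rows tested had Emx1-lineage libraries wholly below those of the brain translatome in RPKM. What was left of the brain translatome level ranged from 12.8% for Lhx8 to 48.8% for Gsx2, and the median log2 fold change of the 9 was -2.01, against 0.00 over all rows tested. In these pull-downs from whole forebrain tissue, fewer tagged cells of a type and less RNA per tagged cell cannot be told apart. The paper raises background RNA from the rest of the tissue as a concern, and its part in the remaining levels was not tested.

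Gsx2, the homeobox gene of lateral ganglionic eminence progenitors, was read at 4.52, 4.36 and 4.08 RPKM in the brain translatome and at 2.36, 1.84 and 1.81 RPKM in the Emx1-lineage. Emx1-lineage replicate 1 was the highest of its group, still below the lowest brain translatome library. The log2 fold change of Gsx2 was -1.04 (SE 0.12, adjusted p = 9.26e-06), which left 48.8% of the reference (95% CI 40.5 to 58.7). This interval lay above those of the other 8 genes. Gsx2 rested on 97 to 312 reads per Emx1-lineage library.

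Nkx2-1, which specifies the medial ganglionic eminence and the preoptic area and is also used in the hypothalamus, was read at 26.4, 29.2 and 31.4 RPKM in the brain translatome. Its 3 Emx1-lineage values of 5.62, 5.98 and 5.29 RPKM were far below these. The log2 fold change was -2.32 (SE 0.08, adjusted p = 5.64e-12), and 20.0% was left (95% CI 17.8 to 22.3).

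Among the Dlx genes, which encode homeodomain factors of the GABAergic program, Dlx1 was read at 81.2, 83.3 and 83.2 RPKM in the brain translatome and at 20.0, 20.7 and 20.2 RPKM in the Emx1-lineage. Dlx2, its neighbour on chromosome 2, gave 55.9, 65.0 and 58.9 RPKM against 16.2, 14.2 and 15.1 RPKM. Dlx5, from the other Dlx cluster on chromosome 6, gave 36.5, 40.4 and 38.0 RPKM against 7.94, 7.84 and 6.94 RPKM. For each of these genes the Emx1-lineage libraries formed a tight low group. The log2 fold changes were -1.97 (SE 0.05) for Dlx1, -1.92 (SE 0.07) for Dlx2 and -2.28 (SE 0.07) for Dlx5, with adjusted p-values of 2.74e-13, 9.19e-12 and 3.89e-12. Of the brain translatome level, 25.5% of Dlx1, 26.4% of Dlx2 and 20.6% of Dlx5 were left. The Dlx1 gene shares its whole span of 5869 bases with the antisense gene Dlx1as, which has a row of its own. No source states strand-specific counting, so an unknown part of the reads may be counted in both rows. Dlx1as was read at 19.8% of its brain translatome level (log2 fold change -2.33, SE 0.07).

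Lhx6 and Lhx8 encode LIM homeodomain factors, Lhx6 of migrating cortical interneurons and Lhx8 of cholinergic and other ventral neurons. Lhx6 was read at 33.5, 36.4 and 36.1 RPKM in the brain translatome and at 6.05, 5.40 and 5.86 RPKM in the Emx1-lineage. Lhx8 gave 14.4, 13.8 and 13.3 RPKM against 1.75, 1.69 and 1.67 RPKM. Both groups of low values were narrow, and those of Lhx8 lay within 0.1 RPKM of each other. Lhx6 fell by 2.49 on the log2 scale (SE 0.06, adjusted p = 2.74e-13), leaving 17.8% (95% CI 16.4 to 19.4). Lhx8 fell by 2.96 (SE 0.08, adjusted p = 9.50e-13), leaving 12.8% (95% CI 11.4 to 14.4), the lowest share of the 9 genes.

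The enzyme genes moved alike. Gad1 was read at 17.4, 19.9 and 19.3 RPKM in the brain translatome and at 5.44, 4.54 and 5.22 RPKM in the Emx1-lineage. Gad2 gave 16.3, 17.5 and 16.9 RPKM against 4.39, 3.89 and 3.79 RPKM. No library of either gene crossed into the range of the other group. Gad1 had a log2 fold change of -1.83 (SE 0.08, adjusted p = 7.60e-11) and 28.1% left, and Gad2 one of -2.01 (SE 0.06, adjusted p = 4.18e-12) and 24.8% left. An antisense gene of Gad1 (Gad1os, 10286 shared bases) and one of Nkx2-1 (Gm26973, 1566 bases) have no row in the tables, and their reads could be part of these rows.

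Set beside all 12648 genes with at least 1 RPKM in the brain translatome and ranked from the most reduced, Lhx8 stood at place 197, Lhx6 at 275, Nkx2-1 at 320, Dlx5 at 327, Gad2 at 406, Dlx1 at 420, Dlx2 at 438, Gad1 at 470 and Gsx2 at 877. The 10 most reduced genes were Gm1943, AU021092, Igfbp7, Bin2, Ccl24, Lyz2, Myct1, Cd34, Grap and Tyrobp, with 1.10% to 3.04% left. Among these, Cd34 is an endothelial gene and Lyz2 and Tyrobp are genes of myeloid cells. The endothelial, microglia and mural cell lists showed the same order of sizes. Endothelial genes fell in 10 of 10 cases (Cdh5, Pecam1, Kdr, Tek, Tie1, Cldn5, Egfl7, Emcn, Cd34 and Slc2a1) with a median of 6.38% left, microglia genes in 9 of 9 with 5.15%, and mural cell genes in 7 of 7 with 11.0%. The 9 ventral and GABAergic genes thus kept a larger share of their brain translatome level than the medians of the endothelial, microglia and mural lists. Red blood cell genes were not reduced. Of the 6 tested, 0 were lower and 0 higher, with a median of 106% left. Their summed RPKM was 111 to 231 in the Emx1-lineage and 155 to 246 in the brain translatome. The difference between lists was not tested.

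**Figure D2:**
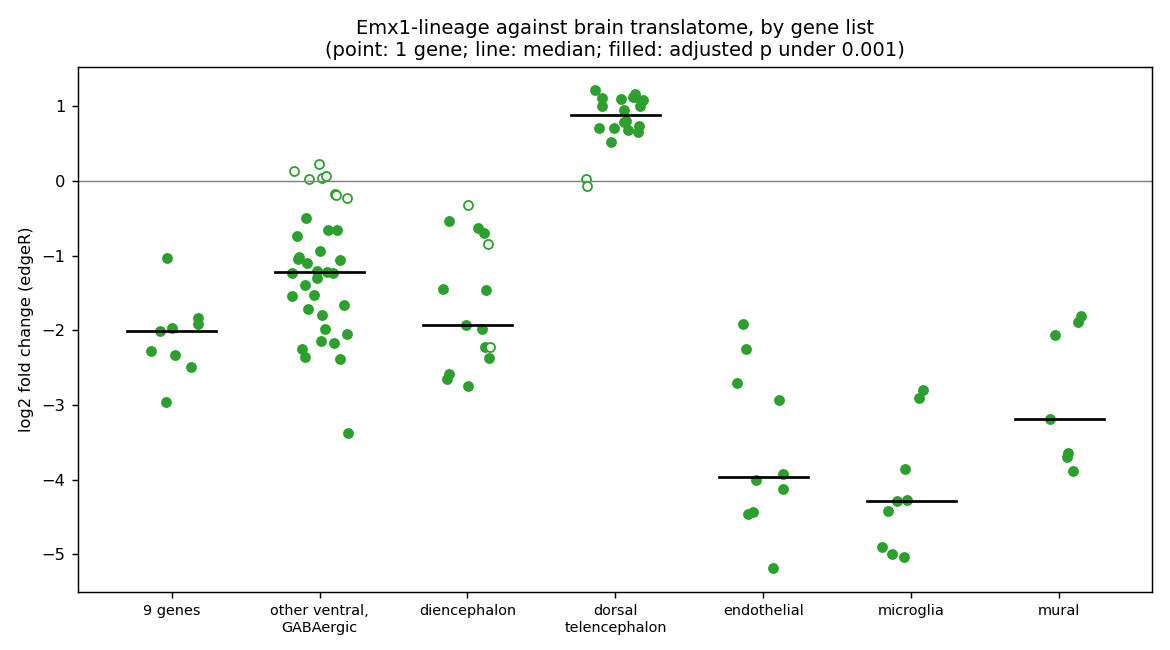
Log2 fold change of Emx1-lineage against brain translatome (vertical axis, edgeR), 1 point per gene by list, with the median as a line; filled points passed adjusted p under 0.001. The 9 genes lie between -2.96 and -1.04, dorsal telencephalon genes lie mostly above 0, and endothelial, microglia and mural genes lie lowest.

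Other genes of the ventral telencephalon and the GABAergic program followed the 9 genes in part. Of 36 such genes, 28 were lower in the Emx1-lineage, 0 were higher and 8 did not pass, with a median of 43.1% left. Among the 28 were Nkx2-4, Sp9, Gsx1, Gbx1, Isl1, Slc32a1, Olig1, Sst, Npy, Dlx6, Shh, Six3, Erbb4, Zfhx3, Npas1, Ebf1, Maf, Zic1, Elfn1, Nxph1, Olig2, Prox1, Cxcr7, Sp8 and Nr2f2. Slc32a1, the vesicular GABA transporter, kept 22.6%, the striatal and cholinergic factor Isl1 22.2%, the peptide gene Sst 25.2% and Dlx6, the neighbour of Dlx5, 30.5%. Among the 8 that did not pass were Nkx6-2, Sall3, Cxcr4, Calb2, Satb1 and Sox6. Why they did not pass was not tested.

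Dorsal telencephalon genes moved the other way in 18 of 20 cases, among them Pax6, Unc5d, Emx2, Neurog1, Neurog2, Lhx2, Slc17a7, Emx1, Fezf2, Sox5, Neurod2, Bhlhe22, Neurod1, Tbr1, Eomes and Neurod6, with a median of 1.84-fold. Slc17a6 and Cux2 did not pass. Genes of the diencephalon, a part of which was in the dissection, were lower in 12 of 15 cases (among them Foxb1, Gbx2, Sim1, Otp, Foxd1, Tcf7l2, Irx3, Pou4f1, Lhx5, Lhx1 and Lhx9), with a median of 26.2% left, close to the 24.8% of the 9 ventral and GABAergic genes. The summed RPKM of the 9 genes divided by that of the 20 dorsal genes was 0.290 to 0.302 in the brain transcriptome and 0.239 to 0.255 in the brain translatome. In the 3 Emx1-lineage libraries it was 0.0288 to 0.0310.

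Measured against the brain transcriptome instead, the 9 genes were again all lower (23.8% of 19471 rows were lower and 25.4% higher). The share left ran from 12.8% for Gad2 to 46.7% for Gsx2. This comparison shares its Emx1-lineage libraries with the one above, so the values are given side by side and not as a second test. Gad2 kept 24.8% of the brain translatome but 12.8% of the brain transcriptome, and Gad1 28.1% and 17.6%. Lhx8 kept 12.8% and 17.0% and Dlx5 20.6% and 26.8%. Which gene ranked as the most reduced thus depended on the reference. Scaling by total counts alone lowered all log2 fold changes against the transcriptome by 0.15, and against the translatome by 0.05. It raised the share of calls that were lower from 48.4% to 60.4% and from 58.3% to 70.1%, and left the 9 genes lower.

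The brain EC translatome, a lineage of another origin purified from the same organ, was set against the brain translatome in the same way. All 9 genes were lower than in the brain translatome (21.4% of 19103 rows were lower). None overlapped, where 44.4% of all rows tested had brain EC wholly below the brain translatome in RPKM. Gad1 kept the most, with values of 7.35, 6.80 and 7.55 RPKM in brain EC and 46.9% left (95% CI 41.6 to 52.9). Lhx6 at 14.0, 14.0 and 11.8 RPKM kept 46.1% (95% CI 40.9 to 52.0). Lhx6 was also read in kidney EC, at 16.1 RPKM, and the source of its brain EC reads was not tested. Their log2 fold changes were -1.09 (SE 0.08, adjusted p = 5.21e-08) and -1.12 (SE 0.08, adjusted p = 3.81e-08).

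Gad2 followed at 4.61, 5.68 and 4.67 RPKM, with 36.0% left. Gsx2 at 1.04, 0.969 and 0.983 RPKM kept 28.2%, and Dlx2 at 13.6, 11.8 and 12.5 RPKM kept 25.8%. Nkx2-1 at 4.69, 5.12 and 5.69 RPKM kept 21.5%. These genes lay between the high shares of Gad1 and Lhx6 and the low shares of the remaining 3. Dlx1 at 13.4, 14.3 and 14.0 RPKM kept 20.6%, Lhx8 at 1.64, 2.03 and 1.75 RPKM 15.9%, and Dlx5 at 4.75, 4.63 and 4.80 RPKM 15.1%. The 9 log2 fold changes had a median of -1.96, against -0.01 over all rows tested.

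Genes of cortical progenitors and neurons were also read in brain EC. Of 20 dorsal telencephalon genes, 20 were lower, with a median of 30.0% left, and the summed RPKM of the 9 genes divided by that of the 20 dorsal genes, 0.218 to 0.266, overlapped the range of the brain translatome. The summed RPKM of the 9 genes was 63.8 to 65.4 in brain EC and 65.8 to 69.8 in the Emx1-lineage, while the endothelial list summed to 4383 to 4507 RPKM in brain EC. The part of forebrain RNA from other cells in the EC values was not tested. The scaling mattered here: by total counts alone, all log2 fold changes against the brain translatome were lower by 0.30, and the share of calls that were lower rose from 46.3% to 63.9%, with the 9 genes lower under both.

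**Figure D3:**
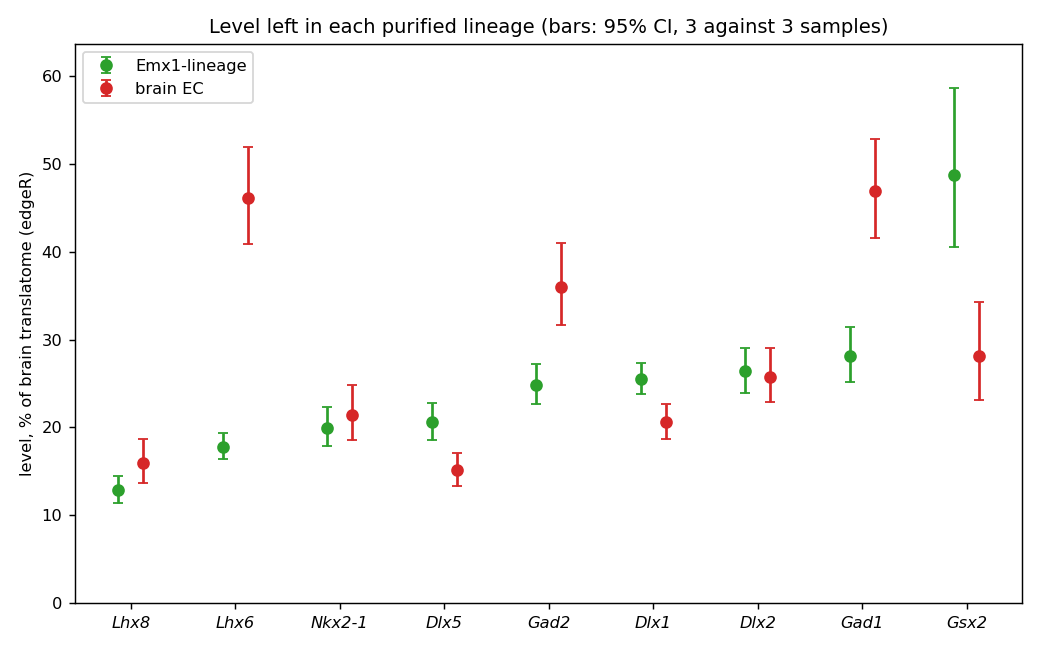
Level of each gene in the Emx1-lineage (green) and brain EC (red) as a percentage of the brain translatome (vertical axis), ordered by the Emx1-lineage value; bars are 95% confidence intervals from edgeR with 3 against 3 samples. Lhx6 and Gad1 are high in brain EC, at 46.1% and 46.9%, and Gsx2 is high in the Emx1-lineage, at 48.8%.

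The difference between the purified lineages was tested directly, on the same libraries. Lhx6 was lower in the Emx1-lineage than in brain EC by 1.35 on the log2 scale, that is 39.2% of the EC level (95% CI 34.5 to 44.4, adjusted p = 2.30e-08). Gad1 was at 60.8% (adjusted p = 7.62e-06) and Gad2 at 70.0% (adjusted p = 3.64e-04). Gad2 lost this call when scaled by total counts (log2 fold change -0.29, adjusted p = 0.0136) and without Emx1-lineage replicate 2 or 3 (adjusted p = 2.78e-03 and 1.93e-03). With limma on log2(RPKM + 1) or log2(RPKM + 0.1), neither Gad1 (adjusted p = 1.76e-03 and 1.07e-03) nor Gad2 (adjusted p = 0.0466 and 0.0369) passed. With Lhx6, Gad1 and Gad2, 3 of 9 genes were lower, against 25.9% of the 19143 rows tested.

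Dlx1, Dlx5 and Gsx2 were higher in the Emx1-lineage than in brain EC, by 0.33, 0.47 and 0.81 on the log2 scale (adjusted p = 3.17e-04, 6.85e-04 and 5.38e-04). That is 3 of 9 genes, against 25.2% of all rows. These 3 calls were near the threshold, and 0 or 1 of them was left when any 1 of the 6 libraries was taken out, with log2 fold changes of 0.31 to 0.36 for Dlx1, 0.40 to 0.51 for Dlx5 and 0.63 to 0.87 for Gsx2. Dlx2, Lhx8 and Nkx2-1 did not pass, with 95% intervals of the Emx1-lineage level from 92.8% to 117%, 67.3% to 99.4% and 83.0% to 108% of the brain EC level. Scaling by total counts raised all log2 fold changes of this comparison by 0.22 and changed the share of calls that were lower from 50.7% to 38.9%.

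The brain translatome and brain transcriptome came in pairs from the same 3 tissue samples, which allowed the ribosome-bound and total mRNA of each gene to be compared. GABA synthesis genes stood apart from most transcription factor genes here. Gad2 was read at 35.8, 34.7 and 35.2 RPKM in the transcriptome and at 16.3, 17.5 and 16.9 RPKM in the translatome. Gad1 gave 27.9, 34.8 and 34.6 RPKM against 17.4, 19.9 and 19.3 RPKM. Neither gene overlapped between the groups, where 32.0% of all rows tested had the translatome wholly below the transcriptome in RPKM. Gad2 fell by 1.03 on the log2 scale (SE 0.05, adjusted p = 4.67e-10), to 48.9% (95% CI 45.7 to 52.4). Gad1 fell by 0.76 (SE 0.08, adjusted p = 1.82e-06), to 59.2% (95% CI 52.5 to 66.8).

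Dlx1 was slightly lower in the translatome, with 101, 104 and 98.6 RPKM in the transcriptome against 81.2, 83.3 and 83.2 RPKM, or 83.4% (95% CI 78.0 to 89.2, adjusted p = 1.64e-04). Dlx5 was slightly higher, with 30.9, 32.6 and 31.2 RPKM against 36.5, 40.4 and 38.0 RPKM, or 1.24-fold (95% CI 1.13 to 1.36, adjusted p = 6.95e-04). In all, 3 of the 9 genes were lower and 1 was higher, where 18.5% and 18.6% of 19446 rows were. Dlx5 kept its call in 1 of the 6 fits that left out a library, that without transcriptome replicate 2, with adjusted p-values of up to 6.99e-03 in the others. Dlx1 lost its call without translatome replicate 2 (adjusted p = 1.02e-03) and in a single fit of all 21 samples (adjusted p = 8.24e-03). The antisense row Dlx1as, which may share an unknown part of its reads with Dlx1, was 1.34-fold higher in the translatome (adjusted p = 2.04e-06).

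The other 5 genes did not pass. Lhx8 was read at 11.7, 11.3 and 10.6 RPKM in the transcriptome and 14.4, 13.8 and 13.3 RPKM in the translatome, a log2 difference of 0.33 (95% CI of the ratio 113% to 140%, adjusted p = 1.29e-03). Nkx2-1 gave 33.6, 35.2 and 37.8 RPKM against 26.4, 29.2 and 31.4 RPKM, a log2 difference of -0.26 (75.4% to 92.9%, adjusted p = 5.90e-03). Both were without overlap between the groups. Of all rows tested, 28.8% had the translatome wholly above the transcriptome, like Lhx8, and 32.0% wholly below, like Nkx2-1. With the replicate number as a block, which keeps the tissue pairs together, Lhx8 and Nkx2-1 passed (adjusted p = 6.17e-05 and 1.48e-04). That made 4 genes lower and 2 higher. The shares over all rows, 18.5% lower and 18.6% higher, are from the fit without the block, and none are given with it. Dlx2 (60.1, 62.1 and 58.0 against 55.9, 65.0 and 58.9 RPKM), Gsx2 (4.77, 5.12 and 4.71 against 4.52, 4.36 and 4.08 RPKM) and Lhx6 (33.3, 33.5 and 34.7 against 33.5, 36.4 and 36.1 RPKM) did not pass in either fit. Their 95% intervals of the translatome level were 93.6% to 111%, 78.3% to 105% and 99.1% to 115% of the transcriptome.

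Transcriptome replicate 1 was sequenced in the same run as the 3 translatome libraries, and transcriptome replicates 2 and 3 in another. Against transcriptome replicate 1 alone, Gad2 and Gad1 were still lower, whereas Dlx1 (log2 fold change -0.27, adjusted p = 9.29e-03) and Dlx5 (0.32, adjusted p = 9.50e-03) no longer passed. That fit has 1 transcriptome library and assumes that it varies like the translatome libraries.

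**Figure D4:**
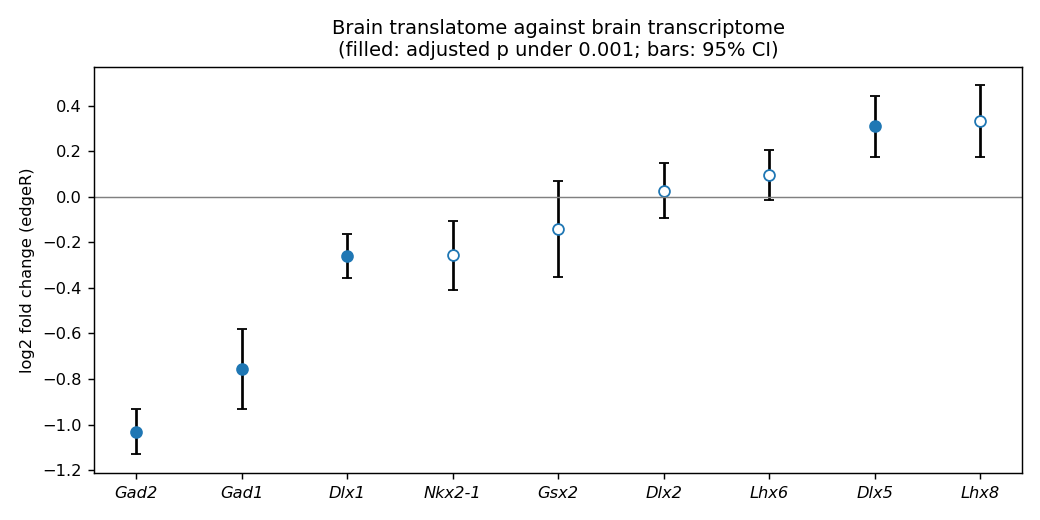
Log2 fold change of brain translatome against brain transcriptome (vertical axis, edgeR) for the 9 genes, with 95% confidence intervals, 3 against 3 samples; filled points passed adjusted p under 0.001. Gad2 and Gad1 lie lowest at -1.03 and -0.76, and the other 7 genes lie between -0.26 and 0.33.

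Kidney libraries gave the level where a forebrain program is not used. The 8 genes other than Lhx6 were at or below 0.223 RPKM in each of the 9 kidney libraries. Gsx2 had 0 reads in all 9, which allows up to 3 reads over the 3 kidney translatome libraries, so that its brain translatome level was at least 169-fold higher. All 9 genes were lower in the kidney translatome than in the brain translatome (27.2% of 19241 rows were lower). No fold change is given for the genes near 0.

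The few kidney translatome reads of most of these genes were not spread evenly. Kidney translatome replicates 1, 2 and 3 held 4, 9 and 0 reads of Dlx1, 5, 13 and 0 of Dlx2, 13, 14 and 0 of Gad2, and 2, 10 and 0 of Nkx2-1. Dlx5 had 4, 5 and 0 reads and Gad1 11, 15 and 1, whereas Lhx8 had 1 read in each. Replicates 1 and 2 were sequenced together with brain transcriptome libraries, while replicate 3 was not, and its part in these reads was not tested. Gad1 was the only one of these 8 genes with reads in all 9 kidney libraries, at 0.122 to 0.159 RPKM in the kidney transcriptome.

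Lhx6 differed from the other 8 genes in the kidney. It was read at 1.96, 2.51 and 1.96 RPKM in the kidney transcriptome and at 3.00, 3.29 and 2.77 RPKM in the kidney translatome, 7.99% of its brain translatome level (95% CI 7.16 to 8.93, adjusted p = 4.75e-14). In kidney EC it reached 16.1, 18.1 and 14.3 RPKM, from 1883 to 2292 reads per library, well above every other kidney library. A comparison chosen after these values had been seen gave a 6.56-fold higher level in kidney EC than in the kidney translatome (95% CI 5.52 to 7.80, log2 fold change 2.71, SE 0.11, adjusted p = 7.94e-09). Lhx6 was the only one of the 8 genes tested there that was higher, where 16.7% of 18940 rows were. Endothelial genes were higher in kidney EC in 9 of 10 cases with a median of 7.30-fold, and kidney genes lower in 9 of 9 cases.

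Brain EC and kidney EC had like levels of Lhx6, 13.3 ± 1.25 and 16.1 ± 1.90 RPKM, without overlap of the replicates. Of all rows tested, 33.9% had brain EC wholly below kidney EC in RPKM. The difference in Lhx6 did not pass (log2 fold change -0.27, SE 0.10, adjusted p = 0.0421), with a 95% interval of 70.4% to 97.0% of the kidney EC level. The other 8 genes were all higher in brain EC than in kidney EC, 8 of 9 genes where 20.1% of 19238 rows were. Gsx2 and Nkx2-1 had 0 reads in the 3 kidney EC libraries, and with up to 3 reads allowed over the group their brain EC levels were at least 66.1-fold and 491-fold higher.

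The purified endothelium thus stood on opposite sides of its organ translatome for Lhx6, at 46.1% in the brain and at 6.56-fold in the kidney. The difference of these effects was -3.80 on the log2 scale (SE 0.14, adjusted p = 4.00e-12, edgeR interaction term over 12 samples), and it was also chosen after the values had been seen. In that test 25.1% of 19764 rows passed in either direction. The fit held no replicate block, so its SE and p-value leave out any pairing of the samples. The size of the difference rested mainly on the organ translatomes, at 35.3 RPKM in the brain and 3.02 RPKM in the kidney. The EC levels were alike, at 13.3 RPKM in the brain and 16.1 RPKM in the kidney.

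Genes whose pattern was most like that of the 9 genes were sought by Pearson's r on log2(RPKM + 1) over the 12 forebrain libraries, which fall into 4 groups of 3 and so are not independent points. For the mean profile of the 9, the closest of 12639 other genes were Isl1 (r = 0.997) and Slc32a1 (r = 0.996), both on the list of further ventral and GABAergic genes. Hap1, Ecel1, Aldh1a3, Fndc9, Crb1, Chrna4, Foxp2 and Wnt3 followed with r from 0.991 to 0.995. Over the 9 translatome libraries alone, 5 of these 10 were again among the closest 10.

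Taken gene by gene, the closest profiles differed. Nkx2-1 was most like Hap1, Crb1 and Slc32a1. Dlx1 was closest to Ecel1, Dlx6as1 and Slc10a4, Dlx2 to Fndc9, Isl1 and Slc32a1, and Dlx5 to Six3, Nkx2-3 and Zic4. Lhx6, with its high brain EC level, was closest to Ntn1, Abcc9 and Tox2, and Lhx8 to Syt13, Gbx2 and Chrna4. Gad1 was closest to Nrxn3, Chd5 and Dzank1, and Gad2 to Cux1, E030019B13Rik and Dzank1. The r values of these genes lay between 0.986 and 0.997. Pearson's r does not measure the size of a change. Gad2 had 16.9 RPKM in the brain translatome and 4.03 RPKM in the Emx1-lineage. Of its closest genes, Cux1 had 53.3 and 40.7 RPKM, and E030019B13Rik had 4.16 and 0.811 RPKM.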

How the data were processed

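RNA from dissected tissue (transcriptome) or from anti-RFP pull-down of tagged ribosomes (translatome) was sequenced in 21 libraries. The authors aligned reads with RUM to mouse build GRCm38 (mm10) and deposited, for each RefSeq row, a raw read count and an RPKM value made with rpkmforgenes. All columns of read counts and RPKM were used. Depth was 21760652 to 79231692 reads, and intervals cover the spread between replicates.

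Counts were compared in pairs of groups with edgeR 4.0.16 (R 4.3.3; TMM, quasi-likelihood test, rows with at least 1 count in the 6 samples), with Benjamini-Hochberg adjustment over all rows tested and a threshold of 0.001. The study used DESeq. RPKM served for levels and likeness. Ranks used the edgeR log2 fold change among genes with at least 1 RPKM in the brain translatome. Alternatives were DESeq2 1.42.0, limma 3.58.1 on log2(RPKM + 1) or log2(RPKM + 0.1), other scaling, filters and sample sets, and a replicate block. The edgeR step was tested on simulated data.

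All 9 genes were named, with 3 nearest profiles each and 10 for their mean among genes with at least 1 RPKM in the brain translatome, together with list genes that passed in the Emx1-lineage against the brain translatome. Some of these genes, and the profiles nearest to Gsx2, are not reported here. The genes and lists were chosen with earlier results of these data known. Of the 38 further ventral and GABAergic genes listed, 36 were found. Deviations of same-numbered brain translatome and transcriptome libraries, which come from the same tissue samples, correlated at 0.576, 0.470 and 0.548, and those of brain EC and kidney EC libraries at 0.251, 0.181 and 0.130, so these numbers were taken to pair the samples, while the values given are from fits without the block unless it is named. In the other comparisons at least 1 pair was at or below 0.1. Replicates were independent tissue samples.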

Additional observations from a re-analysis of the deposited data

Results flagged for a closer look

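Lhx6 differed between organs in the same contrast of purified endothelium against whole-organ translatome. Its log2 fold change was -1.12 in the brain and 2.71 in the kidney, a difference of -3.80 (SE 0.14, edgeR interaction term, adjusted p = 4.00e-12), and leaving out any 1 of the 12 libraries kept it between -3.89 and -3.70. All 3 brain EC libraries, at 11.8 to 14.0 RPKM, were below the brain translatome with its mean of 35.3 RPKM. All 3 kidney EC libraries, at 14.3 to 18.1 RPKM, were above the kidney translatome with its mean of 3.02 RPKM. The difference thus rested mainly on the organ translatomes. Between brain EC and kidney EC the log2 fold change was -0.27 and did not pass. Brain and kidney EC libraries were sequenced in separate runs, the part of which was not tested. The interaction fit held no replicate block.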

How the results depend on the processing

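The 9 genes stayed lower in the Emx1-lineage against both references, in brain EC against the brain translatome and in the kidney translatome under all alternatives run, and 8 stayed higher in brain EC than in kidney EC. Lhx6 passed as lower there at a threshold of 0.05, as 1 gene. Of 984 member fold changes under alternatives, 926 kept direction and side of the threshold, 43 no longer passed, 8 newly passed and 7 reversed, all of them in Emx1-lineage against brain EC, in brain translatome against brain transcriptome, or for Lhx6 in brain EC against kidney EC. The cause was not tested.

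For Emx1-lineage against brain EC, the genes called higher numbered 1 with RLE factors and 1 in a single fit of all samples, and 0 to 1 when a library was left out. The genes called lower numbered 1 with limma at either pseudocount, where Gad1 and Gad2 no longer passed. Nkx2-1 reversed from -0.08 to 0.14 with total counts and to 0.11 and 0.12 with limma (pseudocounts 1 and 0.1), and Dlx2 from 0.06 to -0.029 without Emx1-lineage replicate 1 (0.12 without another library), on the log2 scale and without a call.

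For brain translatome against brain transcriptome, the genes called higher numbered 0 with RLE factors, total counts, the count filter, a single fit, limma or 1 sequencing run, 2 with DESeq2 or at a threshold of 0.05, and 0 to 1 when a library was left out. Dlx2 reversed from 0.03 to -0.0048 and -0.0049 with limma and, over fits that left out a library, took values from -0.033 (without translatome replicate 2) to 0.042. Lhx8 passed without transcriptome replicate 1 (adjusted p = 9.03e-04) and Nkx2-1 without translatome replicate 3 (adjusted p = 8.37e-04). With the replicate block for the paired tissue samples, 2 were higher and 4 lower, and the shares over all rows in that fit are not given. The block changed no other call of the 9 genes.

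Over all rows, the 1749 genes higher in the Emx1-lineage than in the brain translatome became 1164 with the count filter, 1116 with the replicate block, 367 and 455 with limma, and 1110 without Emx1-lineage replicate 2. At a threshold of 0.05 there were 4278 higher and 4302 lower, against 2442 lower at 0.001. Against the transcriptome, limma gave 3062 and 3232 higher in place of 4952, and for brain EC 2931 and 3067 in place of 4740. For translatome against transcriptome, 2344 in place of 3625 were higher within 1 run, and 5461 in place of 3596 lower at 0.05. For brain EC against kidney EC, 5605 in place of 3251 were lower and 5864 in place of 3876 higher at 0.05. For a gene with 0 reads in a kidney group, 3 reads over the group served as the upper bound of its level.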
